A study of Mus musculus with 13 samples.

Results

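TRAV1 and TRAV2 are the V genes that lie farthest from the J genes in the mouse T cell receptor (TCR) α locus, and each is a family of 1 gene. They were described here by every clonotype whose V gene was given as TRAV1 or TRAV2. That rule found 968 clonotypes with TRAV1 and 325 with TRAV2, 1293 of the 90369 listed over 13 samples and 2 of the 106 V gene names. Each clonotype is defined by its V and J genes and by the nucleotides of its CDR3, the junction made of the end of V, any inserted bases and the start of J. Of these clonotypes, 588 with TRAV1 and 257 with TRAV2 were functional, meaning that the CDR3 was in frame and held no stop codon.

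All samples were regulatory T (Treg) cells from male C57BL/6 mice of the genotype Foxp3LSL/yCd4creERT2. In this model a loxP-flanked Thy1.1 reporter and STOP cassette silence Foxp3, so the mice lack functional Treg cells until Cre, expressed from the Cd4 locus as a fusion to a mutant estrogen receptor, is activated by 4-hydroxytamoxifen (4-OHT). A single dose of 4-OHT on postnatal day 14 removed the cassette in T cells expressing the Cre, and the rescued cells carried GFP and no Thy1.1. The groups were sorted TCRβ+CD4+GFP+Thy1.1- cells of pooled spleen and lymph nodes 1.5 months (n = 2, age 8 weeks), 3 months (n = 4, age 3.5 months), 5 months (n = 2, age 5.5 months) and 7 months (n = 5, age 7.5 months) after 4-OHT. Every group carried the same alleles and received 4-OHT, and no untreated or Foxp3-sufficient sample was analysed here. The tables hold TCR α transcripts only, so the labelled cell type could not be checked against marker genes. Whether each sample was a separate mouse is not stated, and p-values measure the spread between these samples.

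During α-chain rearrangement in the thymus, V genes near the J cluster are joined first, to the J genes at its 5′ end, which have the highest TRAJ numbers. Later rounds delete these joins and connect V genes farther away with J genes farther 3′, which have low TRAJ numbers. TRAV1 is also the V gene of the mouse mucosal-associated invariant T (MAIT) cell receptor, in which it is joined to TRAJ33 with a CDR3 of nearly constant sequence.

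In GENCODE's annotation of GRCm38, Trav1 lies at chr14:52427928-52428876 on the plus strand and is the most 5′ of the annotated V genes. Trav2 follows it at chr14:52567198-52568051 on the same strand, 138.3 kb downstream, with no other V gene between them. Their distances to the first J gene, Traj61, are 1726 kb for TRAV1 and 1587 kb for TRAV2. The sequences that these genes give to the start of the CDR3, and that Traj33 (chr14:54185358-54185414) gives to its end, are shown because the junctions below are read against them, 5′ to 3′ on the plus strand.
TRAV1, end of the gene: tgtgctgtgaggga
TRAV2, end of the gene: tgcattgtgactgaca
TRAJ33, start of the gene to the end of the CDR3: tggatagcaactatcagttgatctgg
TRAV1 gives 14 bases to the CDR3 and TRAV2 gives 16. The full V end was kept in 44.2% of the functional TRAV1 clonotypes and in 35.8% of those with TRAV2. Accordingly, 465 of 588 TRAV1 clonotypes (79.1%) started with the residues CAVR, against 2.53% of all clonotypes of the other families. The start CIVT was found in 242 of 257 TRAV2 clonotypes (94.2%) and in 0 clonotypes of any other family.

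TRAV1 and TRAV2 were rarely used. Functional TRAV1 clonotypes numbered 26 to 64 per sample and made up 0.752% ± 0.136 (SD, n = 13) of the functional clonotypes of a sample, with a lowest value of 0.516%, a median of 0.752% and a highest of 0.969%. TRAV2 numbered 11 to 37 per sample and made up 0.329% ± 0.125 (SD, n = 13), from 0.18% through a median of 0.294% to 0.648%. They ranked 17 and 19 of 22 V families by mean share. Total counts per sample ranged from 509818 to 936831 and functional clonotypes from 4820 to 7990, so a share of a V gene at 1 sample rests on few clonotypes: the 95% Wilson interval of the highest TRAV2 share, 37 of 5707 clonotypes, has an upper bound of 0.892%. These intervals cover counting error only.

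Libraries shared clonotypes unevenly. 1.5 months replicate 1, 3 months replicate 4 and 5 months replicate 1 shared 1, 8 and 17 functional TRAV1 or TRAV2 clonotypes in their 3 pairs, while the other 75 pairs shared 0 to 7 with a median of 1. Over all functional clonotypes these 3 pairs shared 5.01% to 13.1% of the smaller library and the other pairs 2.65% to 7.71%, so the ranges overlapped, and 3 months replicates 1 and 2 shared more (7.71%) than 1.5 months replicate 1 and 5 months replicate 1 (5.01%). Of the 845 functional clonotypes, 38 had at least 100 times more counts in another library. Results compared with the other families are given without these 3 libraries where that changed a call, and for the share of recurring sequences.

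J genes at the 5′ end of the cluster were nearly absent from both genes. TRAJ41 and higher numbers made up 0.831% ± 1.47 (SD, n = 13) of functional TRAV1 clonotypes, against 19.0% ± 0.767 in all other V families of the same samples. The share was 0% in 9 samples and at most 4.65%, while the lowest value of the other families was 18%, so the groups did not overlap. In TRAV2 the share was 1.23% ± 2.70 (SD, n = 13), with 10 samples at 0% and a highest value of 9.09%. TRAV1 was 18.2 percentage points lower and TRAV2 17.7 points lower, each in 13 of 13 samples (two-sided exact sign-flip permutation test over 13 samples, p = 2.44e-04, the smallest this test allows; adjusted p = 3.87e-04 over the 19 V families tested). Over all families 73.7% differed from the rest in this share. The next V genes on the locus were also low when all samples were pooled, with TRAJ41 or higher in 1.94% of 515 TRAV3-1 and 1.46% of 342 TRAV5-1 clonotypes, against 0.850% for TRAV1 and 1.17% for TRAV2, and these differences were not tested. The 5′ J genes were met in 5 TRAV1 clonotypes, 3 with TRAJ43, 1 with TRAJ47 and 1 with TRAJ50, and in 3 TRAV2 clonotypes, all with TRAJ42. Of these 8, 3 rested on a single count and the other 5 on 38 to 229 counts.

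The middle of the J cluster took a larger share of both genes. TRAJ21 to TRAJ40 took 63.8% ± 10.4 (SD, n = 13) of TRAV1 clonotypes, from 44.9% to 80.0%, and 60.4% ± 10.8 of TRAV2 clonotypes, from 45.5% to 76.9%. The other families were at 49.6% ± 0.775 with a highest value of 51.0%. TRAV1 was 14.2 points higher (adjusted p = 0.00265) and TRAV2 10.7 points higher (adjusted p = 0.00590), each in 11 of 13 samples by the exact sign-flip test, in which 68.4% of families were called. Weighting each clonotype by its counts left TRAV2 9.61 points higher but not past the threshold (adjusted p = 0.142). The 5′, middle and 3′ shares add up to all clonotypes of a gene, so a lower 5′ share by itself raises the others. Whether the middle J genes were favoured among the J genes outside the 5′ block was not tested.

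For the 3′ J genes the call depended on the setting. TRAJ2 to TRAJ20 took 35.4% ± 10.4 (SD, n = 13) of functional TRAV1 clonotypes, with a lowest value of 20%, a median of 34.6% and a highest of 55.1%. In TRAV2 the share was 38.4% ± 11.1, from 23.1% through a median of 36.4% to 54.5%, the highest mean of the 19 families. Other families were at 31.4% ± 1.07 and ranged from 29.9% to 33.3%, inside the range of both genes. TRAV1 was 3.96 points higher in 8 of 13 samples (exact sign-flip test, adjusted p = 0.245), and by 2.39 points without 7 months replicate 1 and 1.14 points with clonotypes weighted by counts (adjusted p = 0.849). TRAV2 was 6.97 points higher in 10 of 13 samples, which did not pass after adjustment (exact sign-flip test, p = 0.0400, adjusted p = 0.0692), and 52.6% of families were called. It passed without any 1 of 1.5 months replicate 2, 7 months replicate 2 or 7 months replicate 3 (8.12 to 8.17 points, adjusted p from 0.0388 to 0.0396). The TRAV2 difference also passed with at least 2 counts per clonotype (6.73 points, adjusted p = 0.0363) and at least 10 counts (6.33 points, adjusted p = 0.00928). Both calls depended on where the block ended: with TRAJ2 to TRAJ23, TRAV1 was 12 points higher (adjusted p = 0.0155) and TRAV2 12.8 points higher (adjusted p = 0.00515). By the mean TRAJ number, the differences were −4.47 for TRAV1 and −5.91 for TRAV2 (adjusted p = 4.64e-04 for both). A lower 5′ share by itself raises the share of either 3′ block and lowers the mean TRAJ number. These calls are therefore not separate from the 5′ result, and the 3′ share among the J genes outside the 5′ block was not tested.

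**Figure D1:**
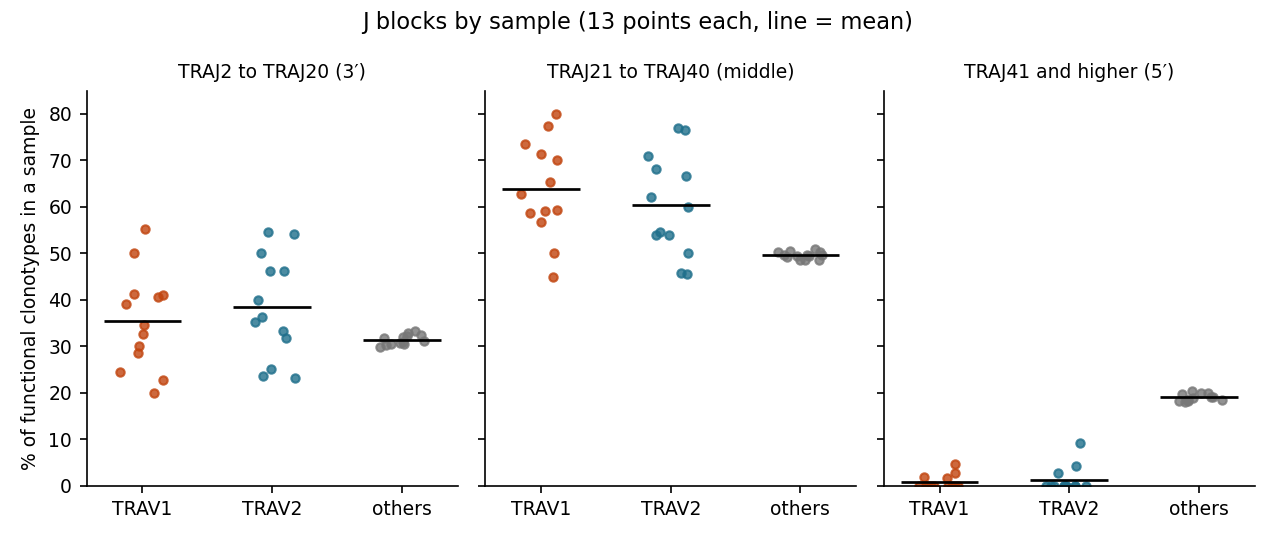
Share of functional clonotypes (percent, vertical axis) that used 3′, middle or 5′ J genes in each of 13 samples, for TRAV1, TRAV2 and all V families other than TRAV1, with the mean as a line. At TRAJ41 and higher all samples of TRAV1 and TRAV2 lie at or below 9.09%, under the lowest value of the other families (18%), while at TRAJ2 to TRAJ20 the groups overlap.

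Families at the opposite end of the V cluster joined 3′ J genes far less often. TRAV17 to TRAV21, a list of families near the J genes of which TRAV21 was not matched to a position, held 2393 functional clonotypes, of which 2.69% ± 1.78 (SD over 13 samples) used TRAJ2 to TRAJ20, with a highest value of 5.88%. TRAV23 lies nearer to the J genes (177.3 kb) but had 2 functional clonotypes and was not in the list. TRAV1 was 32.7 points and TRAV2 35.7 points above TRAV17 to TRAV21, higher in 13 of 13 samples with no overlap (exact sign-flip test, p = 2.44e-04, the smallest possible, and the same after adjustment over both comparisons).

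Along the locus, however, TRAV1 and TRAV2 did not have the lowest J numbers. Among the 92 V genes with a position in GENCODE and at least 50 functional clonotypes, the mean TRAJ number was 23.2 ± 8.61 (SD over 588 clonotypes) for TRAV1 and 21.6 ± 8.89 (SD over 257 clonotypes) for TRAV2. These ranked 37 and 20 from the lowest. The lowest means belonged to TRAV9N-3 (19.0) and TRAV12N-2 (19.1), which lie 922.9 kb and 927.6 kb from the first J gene, and the highest to TRAV19 (49.1) at 309.2 kb. Over these 92 genes, distance and mean TRAJ number had a Pearson correlation of −0.70, given as a description because the genes share libraries and many are near-identical copies whose reads can be assigned to each other.

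**Figure D2:**
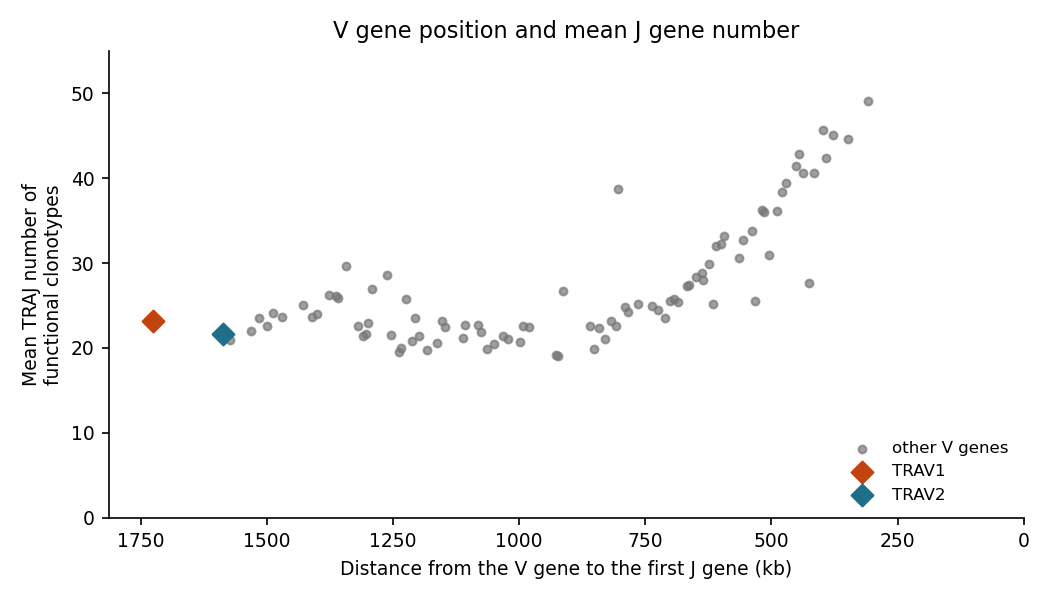
Mean TRAJ number of functional clonotypes (vertical axis) against the distance from the V gene to the first J gene (kb, horizontal axis, J-proximal genes on the right) for 92 V genes, all samples pooled, with TRAV1 and TRAV2 as diamonds. The means fall from 49.1 near the J genes and no longer fall over the 5′ part of the locus, where TRAV1 (23.2) and TRAV2 (21.6) lie.

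Single J genes were compared by the number of functional clonotypes with edgeR's quasi-likelihood test, with the sample as a block, no scaling beyond the totals and Benjamini-Hochberg adjustment over 43 J genes. TRAV1 used 16 of 43 J genes less often than the other families (37.2%) and 2 more often (4.65%). TRAV2 used 8 less often (18.6%) and 4 more often (9.30%). With TMM scaling, which moved the median log2 fold change by −0.70 in TRAV1 and −1.26 in TRAV2, the split was 22 lower and 0 higher for TRAV1 and 26 lower and 0 higher for TRAV2, with 1 and 0 J genes higher at an unadjusted p under 0.05. All J genes called lower by library totals, 16 in TRAV1 and 8 in TRAV2, were also called lower with TMM. Because TMM moved the fold changes downward, this overlap is not a separate check of these calls. With at least 2 or at least 10 counts per clonotype, 13 were called lower in TRAV1 and 3 in TRAV2.

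The lower calls lay mainly at the 5′ end, with 12 of the 13 J genes tested from TRAJ42 upward in TRAV1 and 7 of 13 in TRAV2. The smallest p in TRAV1 belonged to TRAJ42, TRAJ49, TRAJ48 and TRAJ56, none of which was seen in 588 clonotypes. TRAJ44, TRAJ52 and TRAJ57, also not seen, shared the adjusted p of TRAJ48 and TRAJ56 (2.93e-04 in edgeR). A count of 0 of 588 allows a share of up to 0.510%, taken as 3 clonotypes over the group. TRAJ42 made up 2.29% ± 0.211 (SD, n = 13) of the other families, at least 4.49-fold more, with an adjusted p of 1.53e-04 in edgeR. TRAJ49 was at least 4.45-fold, TRAJ56 at least 3.04-fold and TRAJ48 at least 3.02-fold lower in TRAV1. In TRAV2, TRAJ40, TRAJ43, TRAJ49 and TRAJ44 were at 0 of 257 clonotypes, which allows up to 1.17%. TRAJ40 made up 3.16% ± 0.166 (SD, n = 13) of the other families, at least 2.71-fold more (edgeR, adjusted p = 0.00270). For TRAJ43, TRAJ49 and TRAJ44 the bounds were at least 2.05-fold, 1.94-fold and 1.33-fold lower.

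A lower 5′ share by itself raises the shares of the J genes outside that block, which bears on all the higher calls in TRAV1 and TRAV2. Whether single J genes were favoured among the J genes outside the 5′ block was not tested. Among the J genes used more often, TRAJ18 had the smallest p in TRAV1. It was found in 35 of 588 clonotypes and in 12 of 13 samples, at 6.25% ± 3.39 (SD, n = 13) against 2.19% ± 0.169 in the other families (edgeR, log2 fold change 1.44, SE 0.34, adjusted p = 2.93e-04). With TMM its log2 fold change of 0.72 did not pass (adjusted p = 0.0706), and DESeq2 gave an adjusted p of 0.0269. TRAJ35 was found in 17 TRAV1 clonotypes, at 2.42% ± 3.62 against 1.21% (edgeR, log2 fold change 1.23, SE 0.44, adjusted p = 0.0174), but in only 5 samples, and it lost its call without any 1 of 4 samples (3 months replicate 1, 7 months replicates 1, 2 and 5), with a lowest log2 fold change of 0.81. DESeq2 reversed its direction (log2 fold change −0.0361).

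TRAV2 joined TRAJ30 in 23 of 257 clonotypes, at 9.63% ± 8.60 (SD, n = 13) against 2.79% in the other families (edgeR, log2 fold change 1.68, SE 0.39, adjusted p = 8.98e-04). TRAJ22 was joined in 27 clonotypes, at 9.50% ± 11.9 against 3.99% (log2 fold change 1.34, SE 0.38, adjusted p = 0.00472 in edgeR). TRAJ16 followed with 11 clonotypes (log2 fold change 1.79, SE 0.50, adjusted p = 0.00472 in edgeR) and TRAJ9 with 17 (log2 fold change 1.12, SE 0.43, adjusted p = 0.0332 in edgeR). None of these 4 passed with TMM or DESeq2. With TMM the log2 fold change fell to 0.39 for TRAJ30, 0.05 for TRAJ22, 0.49 for TRAJ16 and −0.16 for TRAJ9. With DESeq2 it was 0.12 for TRAJ30 (adjusted p = 0.757), 0.20 for TRAJ16 (adjusted p = 0.708), −0.46 for TRAJ22 and −0.43 for TRAJ9. TRAJ22 also failed with at least 10 counts per clonotype (adjusted p = 0.0872), TRAJ16 without 7 months replicate 4 (adjusted p = 0.120), and TRAJ9 without any 1 of 3 months replicates 1, 2 and 4 or 7 months replicate 3 (adjusted p from 0.0624 to 0.142).

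**Figure D3:**
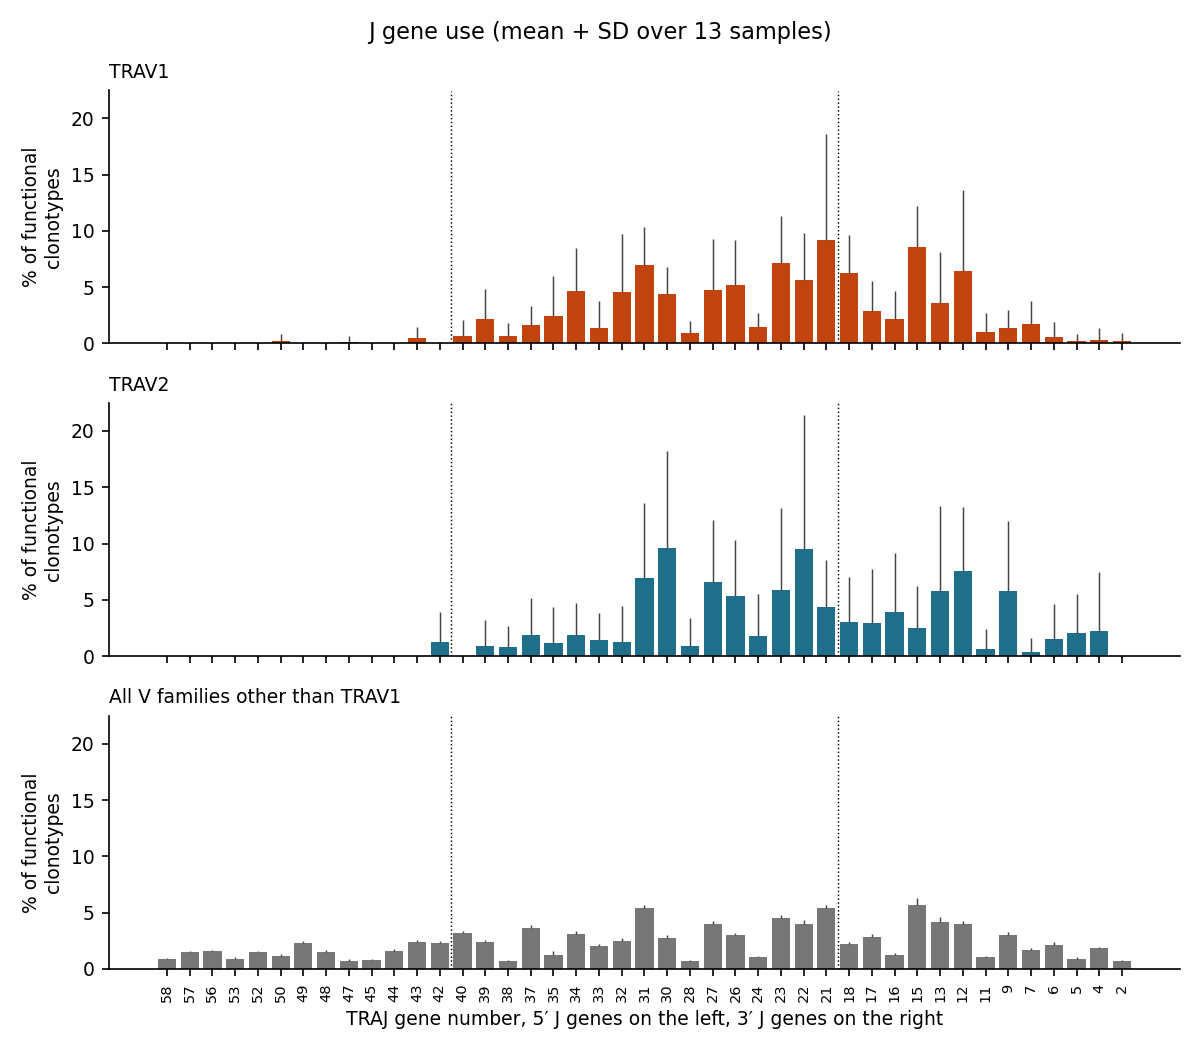
Share of functional clonotypes (percent, vertical axis) that used each of 43 J genes, ordered from 5′ (left) to 3′ (right), for TRAV1, TRAV2 and all V families other than TRAV1. Bars are means, lines reach 1 SD above them over 13 samples, and dotted lines mark the borders of the 5′, middle and 3′ blocks. To the left of the first border TRAV1 and TRAV2 have almost no clonotypes, whereas the other families use all 13 J genes there.

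The J profile of TRAV1, its share per J gene averaged over 13 samples, was most like that of TRAV8 (Pearson r = 0.87 over 44 J genes), TRAV12 (0.84) and TRAV6 (0.84). For TRAV2 the most similar were TRAV8 (0.74), TRAV7 (0.74) and TRAV1 (0.71). These correlations are across J genes of the same libraries and are given as a description.

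No chain of the MAIT type was found. A near-MAIT chain was defined as TRAV1 joined to TRAJ33 with 12 residues, of which the first 3 were the commonest start of TRAV1 (CAV) and the last 8 the commonest end of TRAJ33 in other families (DSNYQLIW). There were 0 such clonotypes among 588, which allows a share of up to 0.510% of TRAV1 clonotypes, a limit that covers counting error only. TRAV1 was joined to TRAJ33 at all in 7 functional clonotypes, in 5 of 13 samples, and in 5 non-functional ones. Its mean TRAJ33 share of 1.38% ± 2.36 (SD, n = 13) was 0.65 points below that of the other families, 2.03% ± 0.211, and this difference did not pass (exact sign-flip test, adjusted p = 0.460, lower in 10 of 13 samples; 36.8% of families were called). Without 7 months replicate 4 the difference was −1.18 points (adjusted p = 0.0591). In edgeR the adjusted p was 0.240, whereas TRAJ33 was called lower in TRAV1 with TMM (0.0112) and with DESeq2 (0.0258). TMM moved its log2 fold change from −0.77 to −1.47, close to the median move of −0.70 over the J genes of TRAV1. For TRAV2 the share was 1.42% ± 2.46, from 4 clonotypes, a difference of −0.60 points (adjusted p = 0.482 by the exact sign-flip test) that became −1.13 without 5 months replicate 2 (adjusted p = 0.103). TRAJ33 in TRAV2 had an adjusted p of 0.672 in edgeR by library totals, whereas it was called lower with TMM (0.0110) and with DESeq2 (0.00802). Here TMM moved the log2 fold change from −0.41 to −1.65, close to the median move of −1.26 over the J genes of TRAV2.

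Shown are the junctions of the TRAV1–TRAJ33 clonotypes with both ends or the length of a near-MAIT chain, and of the largest one. The bases assigned to neither V nor J are in capitals.
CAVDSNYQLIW, 11 residues: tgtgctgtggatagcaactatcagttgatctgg
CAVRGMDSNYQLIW, 14 residues: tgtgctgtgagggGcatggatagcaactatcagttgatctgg
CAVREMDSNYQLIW, 14 residues: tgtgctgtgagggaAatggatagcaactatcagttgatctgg
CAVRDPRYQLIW, 12 residues: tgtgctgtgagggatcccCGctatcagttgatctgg
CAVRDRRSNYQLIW, 14 residues: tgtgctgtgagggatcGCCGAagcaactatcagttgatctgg
The first 3 held both the CAV start and the full TRAJ33 end but were 1 residue too short or 2 too long, with 36 counts in 1.5 months replicate 1, 204 counts in 7 months replicate 3 and 1 count in 1.5 months replicate 1. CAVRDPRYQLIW had 12 residues but lacked the end (106 counts, 3 months replicate 1). The largest, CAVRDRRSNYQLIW, had 561 counts in 7 months replicate 4, or 0.118% of its functional counts (95% Wilson interval 0.108% to 0.128%). None of the 7 was listed in a 2nd sample.

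CDR3s of the same 12-residue form, with the CAV start, any residue next and the DSNYQLIW end, were listed in the same samples with other V genes. This form was found in 25 functional clonotypes of TRAV3, TRAV4, TRAV7, TRAV9 and TRAV14, spread over all 13 samples. These were not a single sequence, since the residue between the fixed ends differed among them. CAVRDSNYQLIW, for instance, was carried by 4 TRAV3 clonotypes (414 counts) and 2 TRAV7 clonotypes (210 counts). Of the other J genes of human MAIT chains, TRAJ12 was joined to TRAV1 in 40 clonotypes, at 6.47% ± 7.18 (SD, n = 13) against 4.00% in the other families (edgeR, log2 fold change 0.60, adjusted p = 0.132, and −0.14 with TMM). TRAJ20 was listed in 0 functional clonotypes of any V family, and could not be compared.

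TRAV1 and TRAV2 CDR3s were longer than those of other families. The mean length was 13.84 ± 0.215 residues in TRAV1 and 14.22 ± 0.223 in TRAV2 (SD, n = 13), against 13.49 ± 0.0230 in all other families pooled. TRAV1 ranged from 13.50 to 14.17 and TRAV2 from 13.83 to 14.59, whereas the pooled value of the other families never exceeded 13.54. TRAV1 was longer by 0.35 residues in 12 of 13 samples (exact sign-flip test, adjusted p = 7.14e-04) and TRAV2 by 0.73 in 13 of 13 (adjusted p = 4.22e-04), a measure in which 89.5% of families were called. By mean length TRAV2 ranked 4th and TRAV1 8th of the 19 families, and TRAV15 was longest. The commonest length was 14 residues in both genes, in 37.8% of TRAV1 and 31.1% of TRAV2 clonotypes, and 13 residues (30.6%) elsewhere. Clonotypes of 15 residues or more made up 41.2% of TRAV2, 27.4% of TRAV1 and 19.3% of the other families.

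For inserted bases neither gene passed the threshold over all 13 samples. TRAV1 junctions held 1.97 ± 0.397 bases assigned to neither gene and TRAV2 junctions 2.02 ± 0.266 (SD, n = 13), against 2.16 ± 0.0508 elsewhere (exact sign-flip test, adjusted p = 0.149 and 0.155; 47.4% of families were called). The TRAV1 difference of −0.19 bases became −0.26 and passed without 7 months replicate 5 (adjusted p = 0.0443). Junctions without such a base made up 36.6% ± 8.99 of TRAV1 and 34.8% ± 8.00 of TRAV2, against 30.9% ± 0.977 (exact sign-flip test, adjusted p = 0.0617 and 0.168; 63.2% of families were called). The TRAV1 difference of 5.68 points was past the threshold without the 3 libraries named above (8.07 points, adjusted p = 0.0371) and without clonotypes far more abundant in another library (6.36 points, adjusted p = 0.0396). It also passed without any 1 of 3 months replicate 3, 3 months replicate 4, 5 months replicate 1 or 7 months replicate 5 (6.44 to 6.78 points, adjusted p from 0.0320 to 0.0442).

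Non-functional clonotypes were unusually frequent in TRAV1. They made up 39.5% ± 5.02 of TRAV1 clonotypes (SD, n = 13), from 32.1% through a median of 39.7% to 49.3%, against 12.8% ± 0.678 in all other families, which never exceeded 14.6%. The groups did not overlap, and TRAV1 was 26.7 points higher in 13 of 13 samples (exact sign-flip test, adjusted p = 5.15e-04). Over all families 78.9% differed from the rest, and TRAV1 ranked 2nd of 19 after TRAV11 at 40.0% ± 10.4. Of the 380 non-functional TRAV1 clonotypes, 375 were out of frame and 5 held a stop codon in frame. They were about as abundant as the functional ones, with a median of 42 counts against 45, while in the families other than TRAV1 and TRAV2 the medians were 16 and 54. As a result TRAV1 made up 3.23% ± 0.534 of all non-functional clonotypes and 0.752% of functional ones.

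In TRAV2 the share varied more, from 3.70% in 3 months replicate 1 to 42.1% in 1.5 months replicate 1, with a mean of 20.2% ± 11.6 (SD, n = 13). On average it was 7.09 points above the other families, and it was higher in 8 of 13 samples (exact sign-flip test, adjusted p = 0.0626). It passed without 3 months replicate 1 (8.53 points, adjusted p = 0.0331) and without 7 months replicate 2 (8.43 points, adjusted p = 0.0411). A large part used TRAJ32: 25 of the 68 non-functional TRAV2 clonotypes did, and within samples they held 8 distinct junctions once the last 20 bases were left off. In TRAV1, 50 non-functional clonotypes with TRAJ32 held 21 such junctions, and in the families other than TRAV1 and TRAV2, 1853 held 818. TRAJ32 made up 36.8% of the non-functional clonotypes of TRAV2, 13.2% of those of TRAV1 and 16.3% of those of the families other than TRAV1 and TRAV2. Of all TRAJ32 clonotypes, 89.3% were non-functional in TRAV2, 64.1% in TRAV1 and 49.2% in these other families. Without TRAJ32, TRAV2 was 3.78 points higher (adjusted p = 0.192) and TRAV1 26.04 points higher (adjusted p = 4.64e-04).

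The 5′ J genes were also rare among non-functional clonotypes, a difference that was not tested. In TRAV1, 8 of 380 (2.11%) used TRAJ41 or higher and in TRAV2 0 of 68, which allows a share of up to 4.41%, against 15.5% of the 11375 non-functional clonotypes of the other families. The germline end of V was kept whole in 42.1% of the non-functional TRAV1 clonotypes, close to the 44.2% of functional ones.

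**Figure D4:**
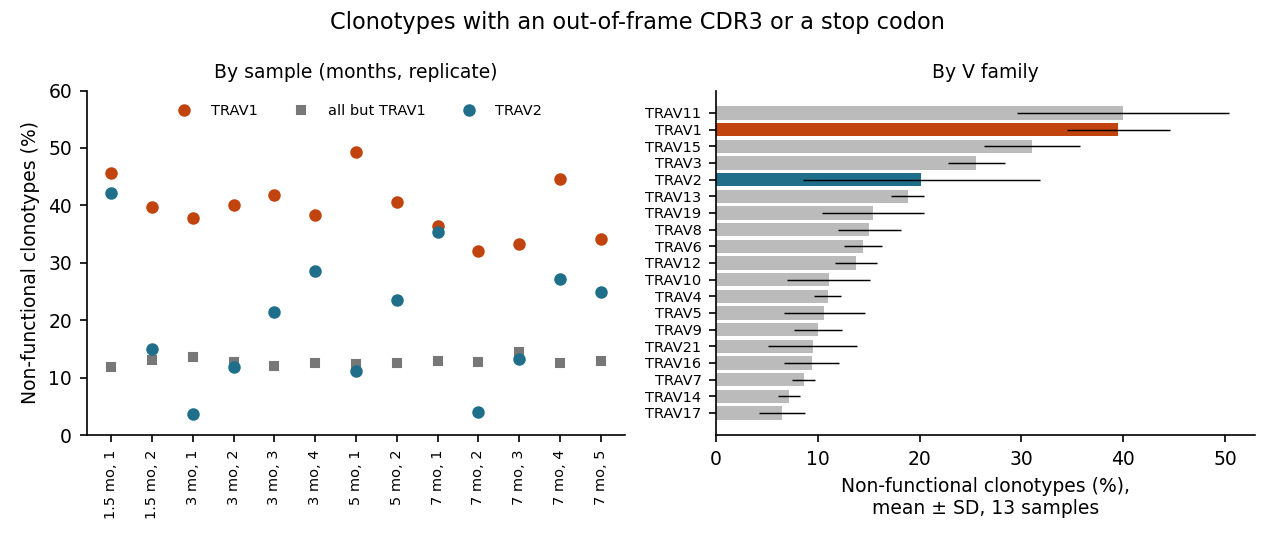
Share of clonotypes that were non-functional (percent), left by sample for TRAV1, TRAV2 and all families other than TRAV1, right as mean ± SD over 13 samples for 19 V families. TRAV1 lies between 32.1% and 49.3%, above the pooled other families in every sample but with a mean below that of TRAV11, whereas TRAV2 spreads from 3.70% to 42.1%.

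Clone sizes of TRAV1 and TRAV2 were not shown to differ from those of other families. The log2 of the mean counts per functional clonotype was 6.41 ± 0.58 in TRAV1 and 6.39 ± 0.75 in TRAV2 (SD, n = 13), against 6.60 ± 0.29 in other families. The differences of −0.19 and −0.21 did not pass (exact sign-flip test, adjusted p = 0.393 and 0.326; 36.8% of families were called). By the median of log2 counts they were −0.63 and −0.76 (adjusted p = 0.118 and 0.321), and with at least 2 counts −0.09 and −0.01 (adjusted p = 0.657 and 0.95). For TRAV1 the difference ran from −0.31 without 7 months replicate 3 to −0.10 without 5 months replicate 2. In RNA of sorted cells, the number of cells of a clone and the RNA per cell cannot be told apart. Clonotypes above 0.1% of the functional counts of a sample numbered 10 in TRAV1 (1.70%) and 3 in TRAV2 (1.17%), against 1.57% of all functional clonotypes. Of the 10, 5 came from 7 months replicate 3, and without that sample TRAV1 had 5 of 538 (0.929%). Those with a single count made up 21.8% of TRAV1, 27.2% of TRAV2 and 17.4% of all.

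The clonotypes with the highest share in their gene are shown with the bases assigned to neither V nor J in capitals.
TRAV1–TRAJ27, 7 months replicate 3: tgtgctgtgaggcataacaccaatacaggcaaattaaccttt
TRAV1–TRAJ22, 3 months replicate 1: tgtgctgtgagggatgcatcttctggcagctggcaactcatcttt
TRAV2–TRAJ17, 7 months replicate 2: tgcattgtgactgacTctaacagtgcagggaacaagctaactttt
TRAV2–TRAJ9, 3 months replicate 4: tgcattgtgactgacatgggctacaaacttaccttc
The TRAV1–TRAJ27 clonotype (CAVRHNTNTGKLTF) had 2688 counts, 0.558% of the functional counts (95% Wilson interval 0.538% to 0.580%), and ranked 3rd of its sample. TRAV1–TRAJ22 had 2192 counts or 0.294% (rank 16). At 1.5 and 5 months the largest TRAV1 clonotypes used TRAJ24 (0.127%) and TRAJ31 (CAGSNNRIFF, 0.0960%). None of these 4 was listed in a 2nd sample. For TRAV2 the largest had 1238 counts or 0.235% at 7 months (TRAJ17) and 1311 counts or 0.231% at 3 months (TRAJ9, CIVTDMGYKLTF), followed by 0.0896% at 5 months (TRAJ17) and 0.0434% at 1.5 months (TRAJ22). The TRAJ9 clonotype was also listed in 2 other samples, with at most 6 counts.

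TRAV1 and TRAV2 CDR3s recurred between samples less often than those of other families. CDR3 amino-acid sequences also found in another sample, with any V gene, made up 45.2% ± 10.2 of TRAV1 and 24.3% ± 14.9 of TRAV2 sequences (SD, n = 13), against 59.8% ± 2.77 in the other families. The differences were −14.6 points for TRAV1 and −35.5 points for TRAV2, each negative in 13 of 13 samples (exact sign-flip test, adjusted p = 3.31e-04), and 94.7% of families were called. Without the 3 libraries named above they were −16.2 and −40.8 points (exact sign-flip test over 10 samples, adjusted p = 0.00265 for both). TRAV2 had the lowest share of the 19 families. All 29 recurring sequences among its 216 distinct ones recurred with TRAV2, whose CIVT start no other family had. Of 479 distinct TRAV1 sequences, 175 (36.5%) recurred with any V gene but only 64 (13.4%) with TRAV1 itself. By nucleotide sequence 9.68% of TRAV1 and 11.6% of TRAV2 clonotypes recurred. Counted within the same family, the recurring share was 13.4% in TRAV2 also and 24.8% in the families other than TRAV1, most of which are larger.

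The most widespread TRAV1 sequence joined TRAJ18 without an inserted base, and is shown beside a TRAV2 sequence found as widely as the TRAJ9 one above.
TRAV1–TRAJ18, CDR3 in 6 samples: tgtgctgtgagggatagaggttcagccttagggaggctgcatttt
TRAV2–TRAJ23, CDR3 in 3 samples: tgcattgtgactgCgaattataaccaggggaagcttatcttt
The TRAJ18 sequence reached 206 counts in 3 months replicate 1, and the same nucleotides were listed in 4 other samples. The next TRAV1 sequences used TRAJ26 and TRAJ30 (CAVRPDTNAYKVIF) and were found in 4 samples each. No TRAV2 sequence was found in more than 3 samples, among them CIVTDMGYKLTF (TRAJ9), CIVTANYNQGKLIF (TRAJ23) and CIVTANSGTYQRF (TRAJ13).

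The use of TRAV1 and TRAV2 was followed over time to see whether these V genes kept their share of the rescued Treg cells. TRAV1 made up 0.538% and 0.678% of functional clonotypes at 1.5 months, 0.901%, 0.683%, 0.753% and 0.752% at 3 months, 0.687% and 0.726% at 5 months, and 0.969%, 0.836%, 0.890%, 0.516% and 0.849% at 7 months. The lowest sample of all was at 7 months (replicate 4), so 7 months overlapped every other time point, while all 3-month and 5-month samples lay above both 1.5-month samples, by as little as 0.683% against 0.678%. In 5 months replicate 1, however, 18 of the 37 TRAV1 clonotypes had a single count, against 11 of 43 and 5 of 44 at 1.5 months. With at least 2 counts per clonotype, the TRAV1 difference between 5 and 1.5 months turned in sign. TRAV2 was at 0.275% and 0.262% at 1.5 months, at 0.366%, 0.648%, 0.18% and 0.376% at 3 months, at 0.297% and 0.270% at 5 months, and at 0.217%, 0.378%, 0.232%, 0.477% and 0.294% at 7 months. Its highest and its lowest sample were both at 3 months.

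Neither gene passed the test in any comparison of time points that was run. The 5-month samples were compared with 1.5 months only, not with 3 or 7 months. For TRAV1 the log2 fold change in clonotype number was 0.36 (SE 0.22) at 3 against 1.5 months, 0.23 (SE 0.27) at 5 against 1.5 months and 0.40 (SE 0.22) at 7 against 1.5 months, with adjusted p of 0.438, 0.888 and 0.251 (edgeR). For TRAV2 they were 0.52 (SE 0.40), 0.08 (SE 0.53) and 0.20 (SE 0.41), with adjusted p of 0.674, 0.888 and 0.833 (edgeR). Between 3 and 7 months the log2 fold change was 0.03 (SE 0.17) for TRAV1 and −0.31 (SE 0.32) for TRAV2 (edgeR, adjusted p = 0.941 and 0.704). With 1 sample left out, the TRAV1 values ran from 0.20 to 0.52 at 3, from 0.06 to 0.39 at 5 and from 0.24 to 0.56 at 7 against 1.5 months, and those of TRAV2 from 0.20 to 0.75, from 0.03 to 0.15 and from 0.06 to 0.30, and none passed. Over all 19 families edgeR called 5.26% at 3 against 1.5 months and 0.0% in the other 3 comparisons, where 2, 3 and 1 families had an unadjusted p under 0.05 and DESeq2 called 0.

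By counts, TRAV1 took 0.743% ± 0.463 and TRAV2 0.310% ± 0.191 of functional counts (SD, n = 13). In TRAV1 the values were 0.319% and 0.321% at 5 months, below every other sample. They ran from 0.599% upward at 1.5 months, from 0.413% to 1.06% at 3 months and from 0.489% to 2.10% at 7 months. The highest was 7 months replicate 3, in which 5 TRAV1 clonotypes exceeded 0.1% of the counts, and the next highest 7-month sample was at 0.836%.

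No trend over months passed the test. The share of clonotypes had a Pearson r with months of 0.40 for TRAV1 (p = 0.176) and −0.06 for TRAV2 (p = 0.868), and a Spearman rho of 0.44 (p = 0.134) and 0.05 (p = 0.868), by permutation tests over 13 samples. With the pair of samples farthest in time from the median left out, r was 0.16 for TRAV1 and −0.25 for TRAV2. Without 7 months replicate 4, r was 0.71 for TRAV1 (adjusted permutation p = 0.130). For the share of TRAJ2 to TRAJ20, r was 0.18 (p = 0.558) and −0.03 (p = 0.916), with rho of 0.12 and −0.01 (permutation p = 0.684 and 0.971), and r became −0.0395 and −0.43 with the same samples left out. For the mean clone size against other families, r was −0.12 (p = 0.697) and −0.11 (p = 0.712), with rho of −0.33 and −0.03 (permutation p = 0.272 and 0.929), and r became 0.0639 and −0.42. With all 13 samples, each permutation p was 0.495 or higher after adjustment over the 19 families by the Benjamini-Hochberg method. In any of the 3 trends 0.0% of families were called, with 1, 1 and 0 families at an unadjusted permutation p under 0.05 by r and 2, 2 and 1 by rho.

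**Figure D5:**
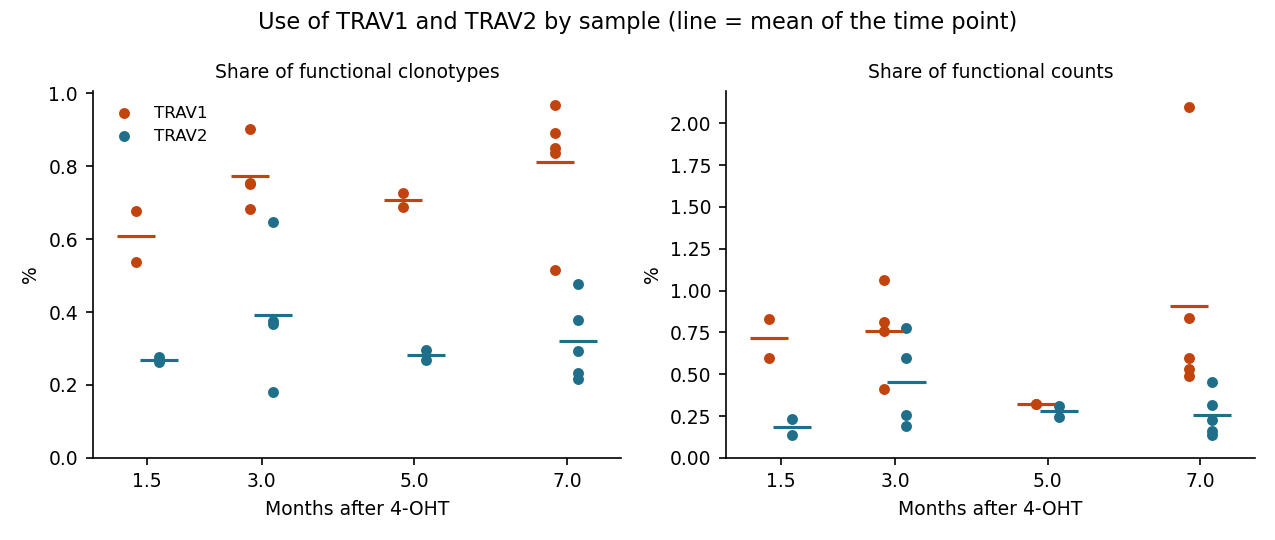
Share of functional clonotypes (left) and of functional counts (right), in percent, taken by TRAV1 and TRAV2 in each sample against months after 4-OHT, with the mean of each time point as a line. The 7-month samples overlap the other time points in clonotype share, both 5-month samples lie lowest for TRAV1 in counts, and 7 months replicate 3 stands at 2.10% of counts for TRAV1.

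The other measures over time are given as values. The non-functional share of TRAV1 was 42.6% ± 4.13 at 1.5 months (n = 2), 39.5% ± 1.79 at 3 months (n = 4), 45.0% ± 6.11 at 5 months (n = 2) and 36.1% ± 5.04 at 7 months (n = 5). Its CDR3 length was 13.84 ± 0.355, 13.81 ± 0.200, 13.79 ± 0.146 and 13.89 ± 0.258 residues at these time points, and that of TRAV2 was 14.18 ± 0.257, 14.32 ± 0.292, 14.23 ± 0.112 and 14.14 ± 0.215. The TRAJ2 to TRAJ20 share of TRAV2 was 27.7% ± 5.86 at 1.5 months, 44.0% ± 8.38 at 3 months, 48.1% ± 2.72 at 5 months and 34.4% ± 12.4 at 7 months. At 3 and 5 months all 6 samples lay above both 1.5-month samples, and the 7-month samples spread from 23.1% to 54.2%. Of these measures, the TRAJ2 to TRAJ20 share was tested over time by the trend above, and the others were not tested.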

How the data were processed

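TCR α transcripts were amplified by 5′ RACE from 13 samples of rescued Treg cells. The authors aligned the reads with MiXCR, assembled clonotypes and corrected them with VDJtools by size ratio and mismatches. The deposited tables give a raw count per clonotype, and whether it counts reads or the random-base tags of cDNA molecules is not stated. The authors also deposited the fraction of the sample's counts held by each clonotype, computed from the counts after correction, which was not used. V and J ends within the CDR3 are those of the aligner, and palindromic bases past a gene's end can be included in them. The labels name GRCm38, and positions and sequences came from GENCODE vM21 of that build, in which 103 of 104 V names of functional clonotypes were found.

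A row without a TRAV family and TRAJ gene was left out (121 rows). V families with a mean of at least 10 functional clonotypes per sample were tested. Within each sample, a family was compared with all others, and the differences were tested by exact sign-flip permutation. Numbers of clonotypes over time were tested with the quasi-likelihood F test of edgeR 4.0.16 (R 4.3.3) after filterByExpr and TMM. For J genes the planned TMM scaling shifted fold changes on simulated clonotype numbers, so library totals were reported and TMM became the alternative. Library totals are not free of a shift either, since a lower 5′ share by itself raises the fold changes of the other J genes. Trends used 100000 permutations. DESeq2 1.42.0 was an alternative, as were minimum counts of 2 and 10, weighting by counts, distinct amino-acid sequences, other J borders, a replicate block and each sample left out. The fits without TRAJ32 and, for J genes and trends, with at least 10 counts were added after the data were seen. Named J genes were up to 4 per direction with the smallest adjusted p, named families the 3 most like each gene in J profile and the J-proximal list, and named clonotypes the largest of each time point and the 3 most widespread. TRAV1, TRAV2 and these lists were chosen with earlier results of these data known. Figures were drawn with matplotlib 3.10.9 in Python 3.11.15, and scipy 1.17.1, pandas 2.3.3 and numpy 2.4.6 were used throughout.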

Additional observations from a re-analysis of the deposited data

Results flagged for a closer look

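In the 3-month and 7-month groups, 48 sets of values were examined for 1 sample far from the others, and 7 held one. About 1 set in 20 would by chance, and sets in which most samples are at 0% are flagged by a single clonotype. TRAV1 took 2.10% of functional counts in 7 months replicate 3, against 0.489% to 0.836% in the other 4 samples. The share of TRAJ21 to TRAJ40 in TRAV1 was 70.0% in 3 months replicate 4, against 58.7% to 59.4% in the other 3. The TRAJ33 share of TRAV1 was 7.69% in 7 months replicate 4, against 0% to 2.00% in the other 7-month samples, and rests on 2 of 26 clonotypes. The TRAJ33 share of TRAV2 was 4.17% in 7 months replicate 2 and 0% in the other 7-month samples. The share of TRAJ41 and higher was above 0% in only 1 sample of its group for TRAV1 in 3 months replicate 1 (1.56%) and in 7 months replicate 2 (1.89%), and for TRAV2 in 3 months replicate 2 (2.70%).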

How the results depend on the processing

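Of 891 values recomputed under alternatives, 800 kept their direction and their side of the threshold or stayed close for counts. The near absence of TRAJ41 and higher in both genes, the longer CDR3s, the non-functional share of TRAV1 and the lower share of recurring CDR3s against other families did so under all alternatives run for them. Few clonotypes per sample limit the J gene results, and where a result changed the cause was not tested. The TRAJ2 to TRAJ20 share of TRAV2 passed with at least 2 counts (6.73 points higher) and at least 10 counts (6.33), both genes passed with TRAJ2 to TRAJ23 (12 and 12.8) and by mean TRAJ number (−4.47 and −5.91), and leaving out 1 sample gave 5.61 to 8.17 for TRAV2. The TRAJ21 to TRAJ40 share of TRAV2 lost its call when weighted by counts (9.61). The TRAV1 share of junctions without inserted bases passed without the 3 libraries named in the report (8.07) and without cross-library clonotypes (6.36), and ranged from 4.26 to 6.78 with 1 sample left out. The TRAV2 non-functional share passed at 10 counts (7.99), and ranged from 5.18 to 8.53 with 1 sample left out. Inserted bases in TRAV1 stayed lower with 1 sample left out (−0.26 to −0.14) and passed without 7 months replicate 5 (−0.26, adjusted p = 0.0443).

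Numbers of J genes depended on the processing. The number lower in TRAV1 stayed within 1.5 times its value. Those higher in TRAV1 (2) became 0 with TMM, 1 with DESeq2, 1 with at least 2 counts, 6 with at least 10 counts and 1 to 3 with 1 sample left out (1 without 7 months replicate 5). Those lower in TRAV2 (8) became 26 with TMM, 27 with DESeq2 and 3 with at least 2 or at least 10 counts, and those higher (4) became 0 with TMM, 0 with DESeq2 and 1 with at least 10 counts. DESeq2 turned TRAV1 with TRAJ35 to −0.0361, TRAV2 with TRAJ22 to −0.46 and TRAV2 with TRAJ9 to −0.43 (−0.16 with TMM). Clonotypes found in 2 or more samples made up 9.68% of TRAV1 and 11.6% of TRAV2 by nucleotide sequence, and 13.4% of each by CDR3 amino-acid sequence alone. Without the fixed length, 3 TRAV1–TRAJ33 clonotypes had both ends of the near-MAIT chain. With neither the length nor the ends fixed there were 7, and 1 had the fixed length of 12 residues.

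Results that had not passed turned in sign as follows. Weighted by counts, the TRAJ33 share of TRAV1 was 0.0968 points higher and inserted bases were 0.0275 higher in TRAV1 and 0.220 higher in TRAV2, and the latter were 0.0428 and 0.0979 higher with at least 2 and 10 counts. TRAV1 at 5 against 1.5 months was −1.11 by summed counts and −0.18 with at least 2 counts, and TRAV2 −0.0203 with at least 2 counts and −0.00643 without cross-library clonotypes. At 7 against 3 months TRAV1 was −0.0417 with at least 2 counts and −0.0373 to 0.15 with 1 sample left out, and TRAV2 −0.54 to 0.0021. Trends of the TRAJ2 to TRAJ20 share had r of −0.0395 for TRAV1 without the 2 farthest samples and −0.0083 to 0.38 with 1 left out, and for TRAV2 0.195 and 0.0850 with at least 2 and 10 counts and −0.24 to 0.12 with 1 left out. Clone size trends had r of 0.0639 for TRAV1 without the 2 farthest samples, 0.0071 for TRAV2 with at least 2 counts and −0.35 to 0.0025 with 1 left out, and the TRAV2 clonotype share ran from −0.19 to 0.18. The correlation of deviations of same-numbered samples was −0.07, −0.03 and 0.08 over 14 pairs, so the numbers were not taken as pairs. A replicate block changed no call, with a log2 fold change of 0.49 for TRAV1 and 0.40 for TRAV2 at 7 against 1.5 months and trends of 0.43 and −0.02 in clonotype share.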
